A study of Mus musculus with 6 samples.

Results

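The genes described here are 10 genes of the Notch pathway in mouse retina: the ligands Dll1, Dll4, Jag1 and Jag2, the receptors Notch1, Notch2, Notch3 and Notch4, and the target genes Hey1 and Heyl. They were chosen by name from a table of 54532 genes, each symbol had 1 gene ID, and all 10 had enough counts to be among the 17108 genes tested. The data are RNA sequencing counts from the retina at postnatal day 17 in C57BL/6J mice, all wild type, with 3 samples from mice with OIR and 3 from normal mice. OIR usually stands for oxygen-induced retinopathy, where high oxygen thins the vessel bed of newborn pups and the retina, short of oxygen back in room air, then forms abnormal vessel tufts. The sources used here do not state the oxygen schedule, and the stated purpose was to find a target linked to vessel growth under hypoxia.

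Notch signalling passes between cells that touch. A ligand of the Delta-like or Jagged kind on one cell binds a Notch receptor on its neighbour, the receptor is cut by an ADAM protease and by gamma-secretase, and the freed intracellular part joins the DNA-binding protein RBPJ and switches on repressors of the Hes and Hey families. In growing retinal vessels VEGF raises Dll4 in the leading tip cells, and Dll4 then restrains sprouting in the cells behind them through Notch1. Notch4 is mostly an endothelial receptor, Notch3 belongs to pericytes and smooth muscle, and in the neural retina Notch1 with Hes1 and Hes5 keeps progenitors and Müller glia from becoming neurons.

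Depth was 15818168 to 17163513 counts per library. By Xist and Y-linked transcripts the OIR group held 2 females and 1 male and the normal group 1 female and 2 males; both groups thus held libraries of more than 1 animal, but the labels do not say whether each library came from its own animal, and the p-values speak of the spread among these 6 samples. The summed level of 18 endothelial markers was 981 to 1069 CPM (CPM is the read count scaled to library size with TMM factors) in OIR and 611 to 700.3 CPM in normal libraries, and that of 11 mural markers (pericytes and smooth muscle) was 1105 to 1225 CPM in OIR and 772 to 853 CPM in normal libraries. Of the mural sum, Vtn alone gave 475, 490 and 508 CPM in OIR libraries and 579, 527 and 525 CPM in normal libraries. Vtn had a log2 change of −0.15 and did not pass, while 7 of the 10 mural markers tested rose. The sum of 13 markers of Müller glia, a cell type of the retina, was 4072 to 4918 CPM in OIR against 5308 to 6149 CPM in normal libraries, with 7 of the 13 lower, among them Glul, the most abundant (log2 change −0.57), and 2 higher, Crym (1.39) and Sox9 (0.93), named after their values were seen. Astrocyte markers summed to 308 to 389.8 CPM in OIR and 74.2 to 85.1 CPM in normal libraries (3 of 6 tested higher, 1 lower), and microglia and macrophage markers to 103 to 140.2 CPM in OIR and 49.0 to 61.5 CPM in normal libraries (7 of 11 higher). Pigment epithelium markers summed to 123 to 157 CPM in OIR and 180.5 to 340.4 CPM in normal libraries (4 of 8 lower). Markers are called at an edgeR adjusted p under 0.05, and over all genes tested 11.1% were higher and 8.73% lower. The part of these lists in the changes below was not tested. Lens markers, which the retina should lack, stood at 4679 CPM in OIR 3 and between 9.29 and 325 CPM in the other 5 libraries, so results are also given without OIR 3 where they moved. No marker of these lists was at 0 in all 6 libraries. In whole tissue, more cells of a type and more RNA per cell cannot be told apart, and this holds for every difference below.

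Of the 10 genes, 6 were higher in OIR retina (Dll4, Jag2, Notch1, Notch3, Notch4 and Heyl), 1 was lower (Dll1) and 3 did not pass (Jag1, Notch2 and Hey1) by edgeR's quasi-likelihood test, with p adjusted over all genes tested and a threshold of 0.05. Over all genes tested, 19.8% were called, 11.1% higher and 8.73% lower. The same 7 genes had OIR and normal libraries that did not overlap, against 36.8% of all genes tested. The median log2 change of the 10 was 0.47, and that of all genes tested was 0.01. The changes of Dll4, Notch3 and Notch4 were the largest among the 10, each over 2-fold.

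**Figure D1:**
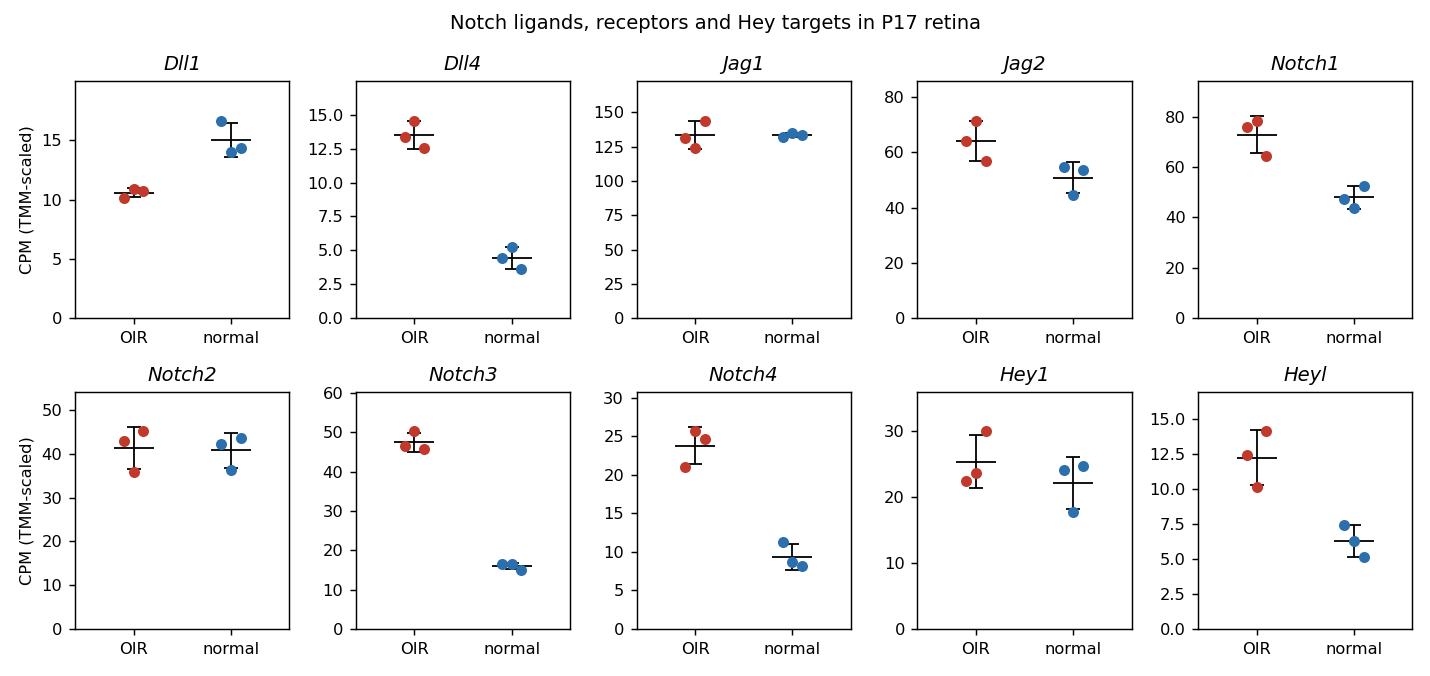
TMM-scaled read counts (CPM) of the 10 genes in each library, with OIR libraries in red and normal libraries in blue. Points are libraries, and bars show the mean and SD of 3. For Dll4, Notch3 and Notch4 the lowest OIR library lay well above the highest normal library, while for Jag1, Notch2 and Hey1 the groups overlapped.

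Among the ligands, Dll4, the VEGF-induced ligand of tip cells, was the one that rose most. Dll4 (ENSMUSG00000027314, chromosome 2, 119325784 to 119335962, plus strand, mm10) had 13.4, 14.6 and 12.5 CPM in OIR libraries, against 4.43, 5.23 and 3.60 CPM in normal libraries. The lowest OIR library lay far above the highest normal one, and the groups did not overlap. Dll4 rose 3.04-fold in OIR retina (log2 change 1.61, standard error 0.16), at an edgeR adjusted p of 8.17e-05. Over 16 alternative settings it lay between 1.48 and 1.74 and passed in each. The group of 10 tip-cell and tuft markers, in which Dll4 was not counted, rose in 10 of 10 cases, against 11.1% of all genes tested. Its median log2 change was 2.71, and its most abundant genes, Apln and Lamb1, had log2 changes of 4.38 and 1.16. This list was chosen with earlier results of these data known, so its rise is no independent support for that of Dll4.

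Dll1, a ligand best known for its part in neural and somite development, moved the other way. Dll1 (ENSMUSG00000014773, chromosome 17, 15367354 to 15376872, minus strand) had 10.1, 10.9 and 10.7 CPM in OIR libraries, against 16.7, 14.0 and 14.3 CPM in normal libraries. The groups did not overlap, and the OIR libraries lay close together. Dll1 fell by 0.51 on the log2 scale (standard error 0.12) with an edgeR adjusted p of 0.0157, which was 0.0588 without OIR 1 (log2 change −0.48). Of its 4219 exon bases, 867 are shared with the noncoding gene A930024N18Rik on the opposite strand. That gene had a log2 change of −0.46 and did not pass (edgeR adjusted p of 0.262), and reads of the 2 genes cannot be told apart where the strand setting is not stated. Dll4, Notch1, Notch2 and Notch3 also share exon bases with noncoding genes, at most 7.5% with any 1 of them.

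The Jagged ligands had smaller log2 changes than Dll4 and Dll1. Jag2 (ENSMUSG00000002799, chromosome 12, 112907819 to 112929776, minus strand) had 64.0, 71.5 and 56.7 CPM in OIR libraries, against 54.5, 44.5 and 53.5 CPM in normal libraries. The gap between the lowest OIR and the highest normal library was smaller than the spread within either group. Its log2 fold change of 0.33 (standard error 0.11) passed only just, with an edgeR adjusted p of 0.04998, and did not pass in 7 of 16 alternatives. Among these were the fits without OIR 1 (adjusted p of 0.124), OIR 2 (0.203), normal 2 (0.122) and normal 3 (0.101) and that with median-of-ratios size factors (0.0504).

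Jag1 (ENSMUSG00000027276, chromosome 2, 137081456 to 137116644, minus strand), which can act against Dll4 on endothelial cells, had 132, 124 and 144 CPM in OIR libraries, against 132, 135 and 134 CPM in normal libraries. The OIR libraries fell on both sides of the normal ones. Its log2 change was −0.0049 with a 95% interval of −0.16 to 0.15 and an edgeR adjusted p of 0.972, so a change as large as that of Dll4 or Dll1 lies outside the interval.

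Of the 4 receptors 3 rose and 0 fell, and of the 4 ligands 2 rose and 1 fell. Over all genes tested, 11.1% rose and 8.73% fell. Notch3 (ENSMUSG00000038146, chromosome 17, 32120820 to 32166880, minus strand), the receptor of mural cells, had 46.6, 50.3 and 45.7 CPM in OIR libraries, against 16.4, 16.5 and 15.05 CPM in normal libraries. Every OIR library was well above every normal one, and both groups were tight. Notch3 rose 2.97-fold, a log2 change of 1.57 (standard error 0.089), at an edgeR adjusted p of 1.83e-06, and the log2 change ranged from 1.52 to 1.61 over the alternatives.

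Notch4 (ENSMUSG00000015468, chromosome 17, 34564268 to 34588503, plus strand), an endothelial receptor, had 21.0, 25.7 and 24.6 CPM in OIR libraries, against 11.3, 8.70 and 8.10 CPM in normal libraries. The groups stood apart, and normal 1 was the highest of its group. Its rise was 2.54-fold in OIR retina, or 1.34 on the log2 scale (standard error 0.15), and the edgeR adjusted p was 0.000133.

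Notch1 (ENSMUSG00000026923, chromosome 2, 26457903 to 26516663, minus strand), the receptor through which Dll4 restrains sprouting, which neural cells also use, had 75.8, 78.4 and 64.3 CPM in OIR libraries, against 47.3, 43.8 and 52.6 CPM in normal libraries. The groups did not overlap, with OIR 3 nearest to the normal libraries. Notch1 rose 1.52-fold (log2 change 0.60, standard error 0.099) at an edgeR adjusted p of 0.00172, and it passed in each of the 16 alternatives.

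Notch2 (ENSMUSG00000027878, chromosome 3, 98013527 to 98150361, plus strand), a receptor used in many tissues, had 43.0, 35.97 and 45.2 CPM in OIR libraries, against 42.3, 36.4 and 43.7 CPM in normal libraries. The groups covered nearly the same range. Its log2 change was 0.02 with a 95% interval of −0.21 to 0.25 and an edgeR adjusted p of 0.918.

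**Figure D2:**
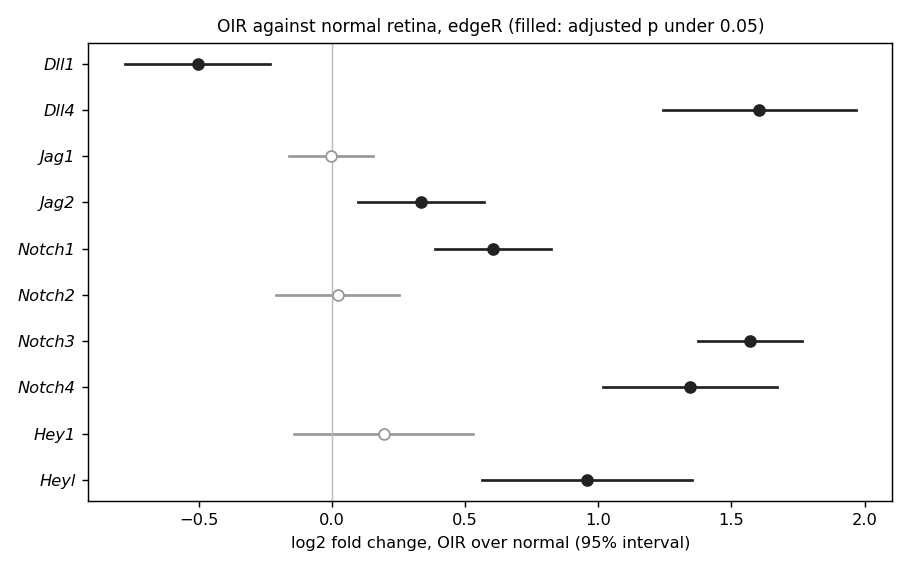
Log2 fold change of each gene, OIR over normal, with its 95% interval from edgeR's quasi-likelihood fit to 3 OIR and 3 normal libraries. Filled points had an adjusted p under 0.05: Dll4, Notch3, Notch4, Heyl, Notch1 and Jag2 lie right of 0 and Dll1 left of it, and the intervals of Jag1, Notch2 and Hey1 include 0.

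The stretch before the start site is shown for the 3 genes that rose over 2-fold and for Jag1, which did not pass, so that it can be seen whether short motifs of Notch or hypoxia signalling mark the genes that rose. Of the 10 genes, 8 have an entry in the RefSeq promoter table (GRCm38.p6), and Hey1 and Heyl were not matched. RefSeq starts are not always the ends of the genes as given here. The windows of Notch1 (chr2:26503823-26504072) and Jag2 (chr12:112929496-112929745) lie wholly within these genes. Those of Jag1, Notch2 and Notch4 lie partly within them. Dll1 has 2 entries and thus 2 windows, the first of them within the gene. The 250 bases upstream of the start are printed 5′ to 3′ on the gene's strand, with capitals for ACGTG or GCGTG on either strand, the core letters of hypoxia response elements.
Dll4 (chr2:119325534-119325783, plus strand): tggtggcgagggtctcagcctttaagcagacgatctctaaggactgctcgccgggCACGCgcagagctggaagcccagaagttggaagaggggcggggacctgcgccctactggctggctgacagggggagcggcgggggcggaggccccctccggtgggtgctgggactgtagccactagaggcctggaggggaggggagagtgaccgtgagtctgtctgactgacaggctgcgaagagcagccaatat
Notch3 (chr17:32166891-32167140, minus strand): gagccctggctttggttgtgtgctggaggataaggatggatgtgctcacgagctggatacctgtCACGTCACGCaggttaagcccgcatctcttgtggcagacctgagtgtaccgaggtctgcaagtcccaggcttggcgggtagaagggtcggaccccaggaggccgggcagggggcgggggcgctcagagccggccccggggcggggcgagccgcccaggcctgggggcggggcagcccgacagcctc
Notch4 (chr17:34564045-34564294, plus strand): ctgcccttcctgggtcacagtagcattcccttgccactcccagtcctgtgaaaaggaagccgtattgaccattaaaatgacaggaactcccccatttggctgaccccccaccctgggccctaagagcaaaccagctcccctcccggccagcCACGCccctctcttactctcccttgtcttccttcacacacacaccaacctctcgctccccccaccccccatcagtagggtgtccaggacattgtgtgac
Jag1 (chr2:137116521-137116770, minus strand): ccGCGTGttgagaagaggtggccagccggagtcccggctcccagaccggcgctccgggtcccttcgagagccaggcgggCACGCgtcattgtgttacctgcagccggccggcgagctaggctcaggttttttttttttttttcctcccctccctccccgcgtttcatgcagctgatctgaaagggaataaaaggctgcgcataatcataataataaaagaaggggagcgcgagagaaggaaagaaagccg
GCGTG was found in 7 of the 8 genes with an entry, all but Notch1, and in 28.2% of all 32851 promoter windows of the same length. ACGTG was found in 1 of the 8, Notch3, where it lies end to end with GCGTG on the minus strand of the window, and in 16.6% of all windows. TGGGAA, the core of RBPJ sites, was found in 0 of the 8 and in 21.6% of all windows. Genes that rose and genes that did not pass both held GCGTG, and no match says only that these letters are not in this window.

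Hey1 and Heyl encode transcriptional repressors that Notch induces in vessels, Heyl chiefly in mural cells. Heyl (ENSMUSG00000032744, chromosome 4, 123233556 to 123249875, plus strand) had 12.4, 10.1 and 14.1 CPM in OIR libraries, against 7.43, 6.26 and 5.14 CPM in normal libraries. All OIR libraries lay above the normal ones, with OIR 3 the highest. Heyl rose 1.94-fold (log2 change 0.96, standard error 0.18; edgeR adjusted p of 0.0037), and its log2 change was 0.83 without OIR 3 (adjusted p of 0.0164).

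Hey1 (ENSMUSG00000040289, chromosome 3, 8663359 to 8667256, minus strand) had 22.5, 23.6 and 30.0 CPM in OIR libraries, against 24.1, 17.7 and 24.8 CPM in normal libraries. The groups overlapped, with OIR 3 the highest and normal 2 the lowest library. Its log2 change was 0.19 with a 95% interval of −0.14 to 0.53 and an edgeR adjusted p of 0.427, and without OIR 3 it was 0.04. The difference in response between Hey1 and Heyl was not tested.

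Levels between genes were compared per length, as TPM computed from the counts and the gene length in the table. That length counts the annotated exon bases of a gene, such as 14232 for Notch1 and 8044 for Notch3. It can exceed the length of the mRNA present, and the orders, sums and shares below rest on it. Jag1 was the most abundant ligand mRNA in both groups, at 85.6 ± 5.78 TPM in OIR and 83.0 ± 6.99 TPM in normal retina (SD, n = 3 each), followed by Jag2 at 34.5 ± 4.28 TPM in OIR and 26.3 ± 2.06 TPM in normal retina. The lower places were swapped: Dll4 at 13.1 ± 1.12 TPM lay above Dll1 at 9.38 ± 0.184 TPM in OIR retina, whereas in normal retina Dll4 at 4.16 ± 0.914 TPM lay below Dll1 at 12.8 ± 0.249 TPM. Neighbours in this order had ranges that did not overlap within either group.

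The order of the receptors by TPM differed as well. In OIR retina Notch3 came first at 22.1 ± 1.25 TPM, then Notch1 at 19.2 ± 2.28 TPM, Notch2 at 14.4 ± 1.68 TPM and Notch4 at 11.04 ± 0.917 TPM. In normal retina Notch2 at 13.6 ± 1.21 TPM and Notch1 at 12.2 ± 1.39 TPM had overlapping ranges, with Notch2 above Notch1 in each of the 3 libraries. Notch3 at 7.19 ± 0.595 TPM and Notch4 at 4.16 ± 0.45 TPM came below them. By CPM, with no division by length, Notch1 had the highest mean of the 4 receptors in both groups. Its mean was 72.9 CPM in OIR and 47.9 CPM in normal retina, so which receptor came first depends on the length used. Summed over the 4 receptors, the level was 66.8 ± 2.44 TPM in OIR and 37.2 ± 2.06 TPM in normal retina, a ratio of 1.796, and over the 4 ligands it was 143 ± 2.09 TPM in OIR and 126 ± 7.17 TPM in normal retina, a ratio of 1.13. Both sums had OIR libraries that did not overlap the normal ones, with an exact two-sided permutation p of 0.1, the smallest that 3 samples against 3 allow. The 2 Hey genes summed to 38.0 ± 5.05 TPM in OIR and 28.9 ± 3.28 TPM in normal retina, a ratio of 1.32 (exact permutation p of 0.1). Hey1 was above Heyl in both groups, at 29.1 ± 4.01 and 8.96 ± 1.40 TPM in OIR and at 24.5 ± 3.73 and 4.41 ± 0.59 TPM in normal retina.

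As shares of the summed ligand TPM, Dll4 made up 9.22%, 9.98% and 8.41% in OIR libraries, against 3.23%, 3.97% and 2.67% in normal libraries. Dll1 made up 6.58 ± 0.206% in OIR and 10.2 ± 0.796% in normal retina. For both genes the groups did not overlap, whereas the shares of Jag1 (60.0 ± 3.91% in OIR and 65.7 ± 1.99% in normal retina) and of Jag2 (24.2 ± 3.02% in OIR and 20.9 ± 1.91% in normal retina) did. Both overlaps came from OIR 3 alone, the library with high lens markers. Its Jag1 share was 63.96%, against 63.71% in normal 1. Its Jag2 share was 21.07%, against 21.98% in normal 1 and 21.97% in normal 3. In OIR 1 and OIR 2 the Jag1 shares, 60.0% and 56.1%, lay below all normal libraries. Their Jag2 shares, 24.4% and 27.1%, lay above all normal libraries. Among the receptors the share of Notch3 was 32.7%, 34.2% and 32.6% in OIR libraries, against 19.1%, 21.5% and 17.6% in normal libraries. Notch2 took the opposite place, with 22.5%, 18.2% and 24.02% in OIR and 36.7%, 35.2% and 38.2% in normal libraries. The shares of Notch1 (28.7 ± 2.42% in OIR and 32.7 ± 1.89% in normal retina) and Notch4 (16.5 ± 1.57% in OIR and 11.3 ± 1.81% in normal retina) differed less, and the exact permutation p of each of the 4 receptor shares was 0.1. Shares of a sum move together, so a lower share of Notch2 is not a lower level of Notch2.

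**Figure D3:**
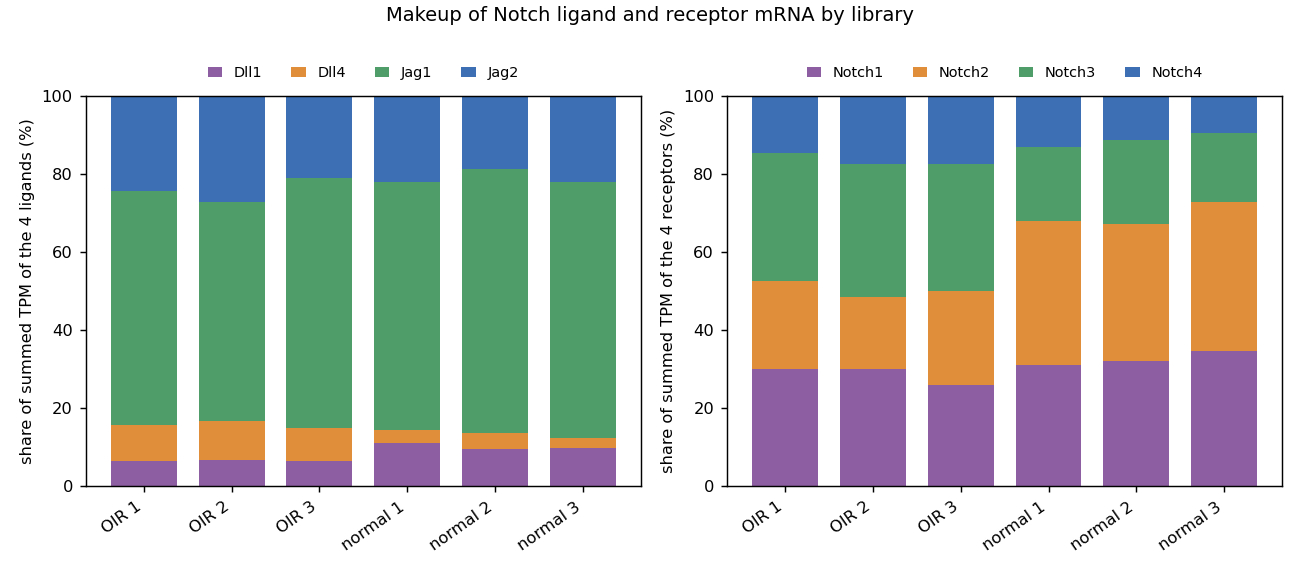
Share of each gene in the summed TPM of the 4 ligands (left) and of the 4 receptors (right), one bar per library, OIR libraries first. The band of Dll4 is 8.41% to 9.98% in OIR and 2.67% to 3.97% in normal libraries, and the bands of Notch3 and Notch4 are taller, and that of Notch2 shorter, in all 3 OIR libraries than in any of the normal ones.

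Because vessel markers were higher in OIR retina, each gene was also set against the mean log2 CPM of the 18 endothelial markers in the same library. That mean was 5.13 in OIR and 4.22 in normal retina, a difference of 0.92. Relative to it, Dll4 was higher in OIR by 0.68, Notch3 by 0.65 and Notch4 by 0.43 on the log2 scale, each with libraries that did not overlap. Against the median in place of the mean of the markers these values were 0.30, 0.27 and 0.05. Heyl had a relative difference of 0.04 with overlapping groups (exact permutation p of 0.9), which turned to −0.34 against the median of the markers and to −0.044 without OIR 3. Notch1 had a relative difference of −0.31, also with overlapping groups (exact permutation p of 0.3), and −0.69 against the median. Jag2 (−0.58), Hey1 (−0.72), Notch2 (−0.90), Jag1 (−0.92) and Dll1 (−1.41) were lower relative to the markers, with no overlap and an exact permutation p of 0.1. Each value is nearly the gene's own log2 change less the 0.92 rise of the marker mean. Jag1 and Notch2 had log2 changes of −0.0049 and 0.02 themselves, so their separation here follows from the rise of the markers. Among the markers, 13 of 18 rose, against 11.1% of all genes tested, with a median log2 change of 1.05. Kdr, the main VEGF receptor gene and the most abundant of them, had a log2 change of 0.01, and Flt1, the next in abundance, one of 0.59.

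**Figure D4:**
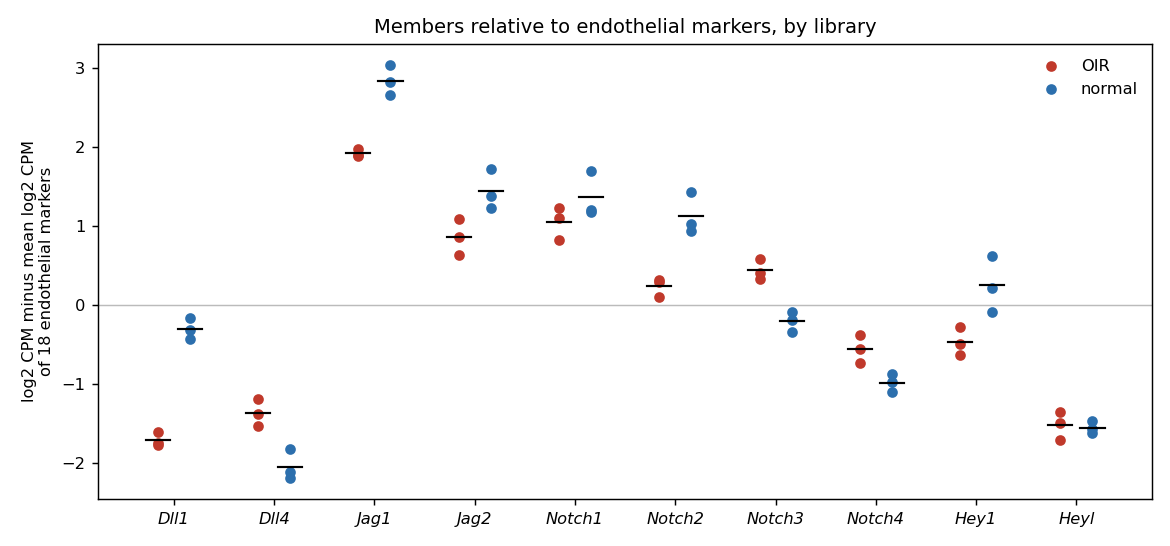
Log2 CPM of each gene minus the mean log2 CPM of 18 endothelial markers in the same library. Points are libraries, with OIR in red at the left and normal in blue at the right of each pair, and bars are means. OIR points lie above normal points for Dll4, Notch3 and Notch4, overlap for Notch1 and Heyl, and lie below for the other genes.

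Notch3 and Heyl were also set against 11 mural markers, whose mean log2 CPM was 4.57 in OIR and 3.27 in normal retina. Notch3 was higher relative to them by 0.26 in OIR retina and Heyl lower by 0.36, with no overlap of the libraries and an exact permutation p of 0.1 for both. The gaps were narrow. For Notch3 the nearest libraries were OIR 3 at 0.86 and normal 3 at 0.84. For Heyl they were OIR 1 at −0.75 and normal 3 at −0.68. Against the median of the markers the value of Notch3 turned to −0.38, and that of Heyl was −0.99. Of the mural markers, 7 of the 10 tested rose, against 11.1% of all genes tested. Among those that rose was the pericyte gene Rgs5, with a log2 change of 1.33. Vtn, the most abundant, had a log2 change of −0.15 and did not pass. What part cell numbers had in the changes of Notch3 and Heyl was not tested.

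Of 57 other genes of the pathway, 55 were tested, and 7 rose and 6 fell, or 13 of 55 against 19.8% of all genes tested. Their median log2 change was 0.03. These counts rest on single libraries: they were 4 and 3 without OIR 1, 5 and 3 without OIR 2, 12 and 7 without normal 1, and 4 and 3 without normal 3.

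Among the other target genes, 3 of 8 tested rose and 1 fell, against 11.1% and 8.73% of all genes tested. Hes5, a repressor of neuronal fate in progenitors and Müller glia, fell most of the 55 tested, with 2.36, 2.06 and 2.23 CPM in OIR libraries, against 6.53, 5.66 and 5.40 CPM in normal libraries. The groups stood far apart for so low a gene, and Hes5 fell by 1.40 on the log2 scale (standard error 0.20; adjusted p of 0.00074 in edgeR). Hes1, a target of Notch in many tissues, had 22.8 ± 0.914 CPM in OIR and 25.7 ± 2.45 CPM in normal retina (SD, n = 3) and did not pass, with a log2 change of −0.17 and a 95% interval of −0.40 to 0.06. Hey2, the third gene of the Hey family and a marker of arterial endothelium, had 21.8, 20.9 and 18.2 CPM in OIR libraries, against 14.6, 14.1 and 14.3 CPM in normal libraries. It rose by 0.50 on the log2 scale (adjusted p in edgeR 0.0107, and 0.0544 without OIR 1).

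Nrarp, a feedback inhibitor of Notch in endothelial stalk cells, had 6.95, 9.55 and 8.05 CPM in OIR libraries, against 5.81, 5.17 and 3.79 CPM in normal libraries. It rose by 0.73 on the log2 scale (adjusted p in edgeR 0.0258), and its adjusted p was 0.122 without OIR 2, 0.0574 without OIR 3 and 0.105 without normal 3. Gja4, a gap junction gene of arterial endothelium, rose 2.53-fold (edgeR adjusted p of 0.000502). Efnb2, an arterial ephrin, did not pass, with a log2 change of −0.20.

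Of the 8 other and non-canonical ligands, 2 rose and 2 fell, against 11.1% and 8.73% of all genes tested. Egfl7, a secreted endothelial protein that can block Notch, rose 2.87-fold, with 28.3, 22.6 and 21.8 CPM in OIR libraries, against 9.05, 9.55 and 6.69 CPM in normal libraries. Mfap2, a microfibril gene, rose by 0.47 on the log2 scale. Dner, a neuronal Notch ligand, fell most in this group, with 110, 118 and 129 CPM in OIR libraries, against 213, 178 and 199 CPM in normal libraries, or −0.73 on the log2 scale, with an adjusted p of 0.000209 in edgeR. Cntn1, a neuronal adhesion gene, fell by 0.39 on the log2 scale. Amacrine and horizontal cell markers had a summed level of 596 to 695 CPM in OIR and 949.6 to 1002 CPM in normal libraries, and their part in the falls of Dner and Cntn1 was not tested. Dll3, a ligand that does not activate receptors on other cells, was near 1 CPM and did not pass (log2 change 0.97, edgeR adjusted p of 0.132).

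The genes that modify, cut and relay the receptors are read against the 19.8% of all genes tested that were called. Of 6 Fringe and glycosyltransferase genes, 0 were called by edgeR, 0 by DESeq2 and 0 by limma-voom, and 2, 2 and 3 had an unadjusted p under 0.05. Lfng, which tunes receptors towards Delta-like ligands, had 17.1 ± 3.69 CPM in OIR and 12.2 ± 1.37 CPM in normal retina (SD, n = 3), with a log2 change of 0.48 and an edgeR adjusted p of 0.071, and passed with no filter on low counts (0.0162) and without OIR 2 (0.022). Mfng had a log2 change of 0.38 and Rfng one of −0.13, and neither passed, although Mfng did without normal 1 (adjusted p of 0.012). Of 10 protease and gamma-secretase genes, Aph1a, a gamma-secretase subunit, rose by 0.45 on the log2 scale (adjusted p in edgeR 0.0274). It did not pass when any 1 of 5 libraries was left out, with adjusted p of 0.121 without OIR 1, 0.053 without OIR 2, 0.0599 without OIR 3, 0.0679 without normal 2 and 0.125 without normal 3.

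Of 12 genes of ubiquitination and endocytosis, Neurl1a, a neuronal ubiquitin ligase for ligands, rose by 0.28 on the log2 scale (adjusted p in edgeR 0.0149) and Dtx4, of the Deltex family, fell by 0.26 on the log2 scale (0.0459). Neurl1a did not pass without OIR 2 (adjusted p of 0.106) or normal 3 (0.071), and Dtx4 passed without OIR 3 but not without any other single library (adjusted p of 0.0517 to 0.18). Of 11 tested genes of the nuclear complex, the corepressor genes Spen and Tle1 had log2 changes of −0.23 (edgeR adjusted p of 0.0247) and −0.32 (0.0213), and neither passed without OIR 1, OIR 2 or normal 3, nor did Spen without OIR 3. Rbpj, through which all 4 receptors act, had 55.6 ± 4.56 CPM in OIR and 51.8 ± 4.41 CPM in normal retina (SD, n = 3), with a log2 change of 0.10 and a 95% interval of −0.10 to 0.30.

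**Figure D5:**
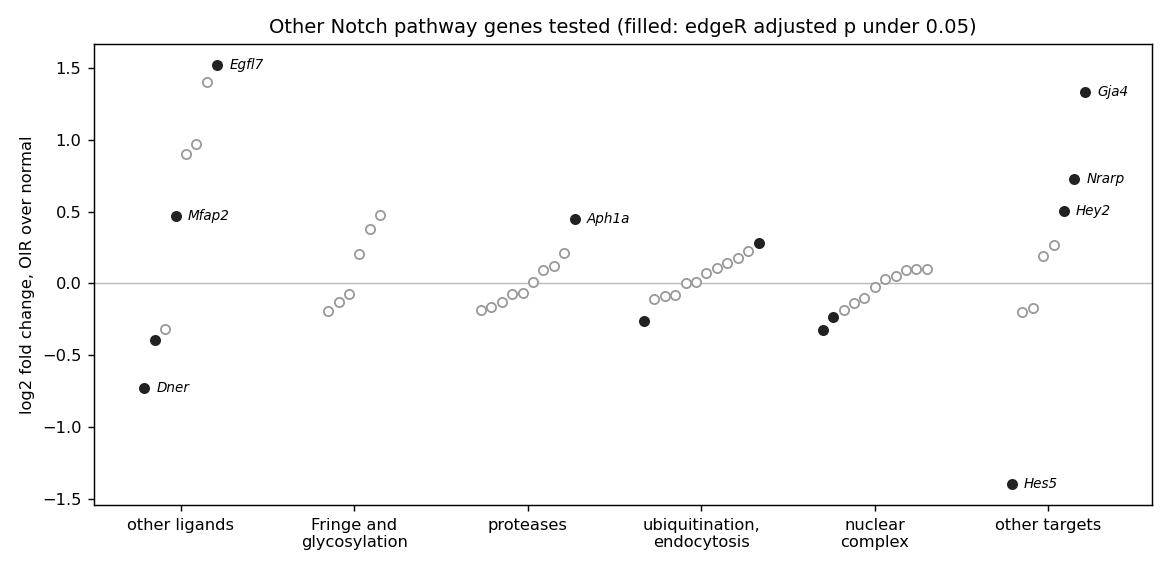
Log2 fold change, OIR over normal, of the 55 other Notch pathway genes tested, by role, sorted within each role. Filled points had an edgeR adjusted p under 0.05, and those beyond 0.4 in size are named: Egfl7 (1.52), Gja4 (1.34) and Nrarp (0.73) are the highest filled points and Hes5 (−1.40) and Dner (−0.73) the lowest.

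By profile over the 6 libraries, the gene most like Dll4 among 15813 with a mean of at least 1 CPM was Robo4, an endothelial guidance receptor gene. Its centred log2 CPM differed from that of Dll4 by a root mean square of 0.068. Higd1b, known from pericytes, and Nab2, a corepressor of EGR factors, came next at 0.075 and 0.092. Nearest to Notch3 were Eng, an endothelial TGF-beta co-receptor, at 0.044, the intermediate filament gene Vim at 0.052 and the cyclin gene Ccnd1 at 0.055. Heyl was nearest to Unc93b1 (0.089), the pseudogene Gm9843 (0.096) and the thromboxane synthase gene Tbxas1 (0.097), and Hey1 to Adamts17 (0.061), Nyap1 (0.072) and Gm43267 (0.073). With 2 groups of 3 libraries this measure is led by the difference between the groups, and it is a description only.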

How the data were processed

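Total RNA of 6 retina samples was sequenced. The labels' protocols name TRIzol for the extraction and a NEBNext Ultra RNA kit for the libraries. The authors deposited raw counts per gene, and per the file headers gene length and position stand beside them. The submitters' processing notes list HISAT2 2.0.5 and featureCounts 1.5.0-p3, besides fastp, CASAVA 1.8 and DESeq2 1.20.0, and the build mm10. Which annotation release and strand setting were used is not stated there. Columns named OIR were matched to OIR samples by number, and the others to normal samples.

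EdgeR 4.0.16 (R 4.3.3) was run on the counts with TMM scaling, filterByExpr (minimum count 10, total 15), a quasi-likelihood test without covariates over all 17108 genes kept, and Benjamini-Hochberg adjustment with a threshold of 0.05. The standard error is the log2 change over the square root of F. TPM used the length in the deposited table. Levels relative to markers used log2 CPM with a prior count of 2, averaged over markers. Alternatives were DESeq2 1.42.0, limma-voom (limma 3.58.1), other scalings, filters and thresholds, a replicate block, sex as covariate, lens genes left out, and each library left out. Tests were checked on simulated counts. The genes and lists were chosen with earlier results of these data known. Named were the 10 genes, 11 pathway genes by name, up to 3 called genes per role and the 3 nearest profiles of 4 genes. Mfap2 was named besides, as the remaining called gene of its role. The 2 most abundant genes were named for the endothelial, mural, and tip-cell and tuft lists. For Müller glia the most abundant marker was named, with Crym and Sox9 added after their values were seen. A930024N18Rik was named for its overlap with Dll1. All replicate pairs differed beyond counting noise, with chi-square values of 7.20 to 23.1 times their degrees of freedom.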

Additional observations from a re-analysis of the deposited data

How the results depend on the processing

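Of 160 alternative values of the 10 genes' log2 changes, 146 kept their direction and side of the threshold, 9 lost the call (7 of Jag2 and 2 of Dll1) and 5 changed sign. The sign changes were of genes that did not pass: Jag1 was 0.038 with library totals alone and ranged from −0.078 to 0.036 with 1 library left out, and Notch2 from −0.060 to 0.10. Dll4, Notch1, Notch3, Notch4 and Heyl were called in all 16 alternatives, also without OIR 3. At an adjusted p under 0.01 the calls were 1116 higher and 647 lower of all genes, 5 higher and 0 lower of the 10 genes, and 3 higher and 3 lower of the other pathway genes. The count of 0 was 0 also in DESeq2 and limma-voom, with 1 gene, Dll1, at an unadjusted p under 0.05 in each tool, and the same held without OIR 1 at a threshold of 0.05. With 1 library left out, calls ranged from 1237 to 2097 higher and 761 to 1734 lower of all genes, from 5 to 6 higher and 0 to 1 lower of the 10, and from 4 to 12 higher and 3 to 7 lower of the other pathway genes. Relative to endothelial markers Heyl ranged from −0.044 to 0.13 with 1 library left out and was −0.34 against their median, and Notch3 relative to the median of mural markers was −0.38. The directions of the 8 shares held in all 56 alternatives.

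With the replicate number as a block, 5 of the 10 genes were higher and 1 lower, and Jag2 had an adjusted p of 0.0817. Deviations of same-numbered libraries correlated by 0.06, −0.16 and 0.07, and those of differently numbered ones by −0.18 to 0.10. Of the OIR libraries, only OIR 3 correlated best with its own number. Deviations from means of 3 libraries cannot show whether or not the numbers pair the libraries. The causes of these shifts were not tested. Genes near 1 CPM, such as Dll3, are limited by depth.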
